A study of Mus musculus with 6 samples.

Results

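The 10 genes described here, *Pdgfra*, *Pdgfrb*, *Met*, *Kit*, *Fgfr1*, *Fgfr2*, *Igf1r*, *Axl*, *Mertk* and *Tyro3*, encode receptor tyrosine kinases that melanoma research has linked to drug resistance. They were chosen by name, and all 10 were found among the 40166 genes of a bulk RNA-Seq count table from 6 YUMM3.3 tumors. The YUMM3.3 line was derived from a mouse melanoma that carries mutant BRAF, and it was implanted under the skin of immunocompetent C57BL/6 mice that were 8 to 10 weeks old. Treatment began when tumors averaged about 100 mm3 or at day 10 after inoculation. The mice were gavaged on 5 days a week with H2O (vehicle, 3 tumors, numbered 7, 8 and 9 in the labels) or with Rigosertib (RGS) at 300 mg/kg (3 tumors, numbered 10, 11 and 12). Tumors were taken after 17 days of treatment. RGS is a small molecule that mimics RAS, and it interferes with the binding of RAS to its effectors. Both groups carry the same cell line and host strain, so the treatment is the only labelled difference. Nothing in the labels states whether the tumors came from several experiments, and the p-values measure the spread between these 6 tumors only.

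A receptor tyrosine kinase spans the cell membrane. A ligand outside the cell brings receptor molecules together, their kinase domains phosphorylate each other on tyrosines, and adaptor proteins that bind these tyrosines pass the signal to RAS and to PI3K. In melanomas with mutant BRAF, such receptors can feed the same pathways from above the mutated kinase, and high AXL with low MITF is a known mark of dedifferentiated melanoma cells. KIT, in contrast, belongs to the melanocyte lineage and to mast cells, PDGFRB to pericytes and fibroblasts, and MERTK to macrophages.

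Of the 10 receptors, 8 were measured with at least 33 counts in every tumor, *Kit* had no count in any tumor and *Fgfr2* had 6 counts in 1 tumor. With RGS, *Axl*, *Met*, *Pdgfra* and *Pdgfrb* were lower, and *Fgfr1*, *Igf1r* and *Tyro3* were higher, while *Mertk* did not pass the threshold (edgeR's quasi-likelihood test, adjusted p under 0.05 over all tested genes). These 7 of 8 stand beside 32.8% of all 15355 tested genes that passed, 16.5% of them lower (4 of the 8 receptors) and 16.3% higher (3 of the 8). In the same 7 receptors no RGS tumor overlapped with a vehicle tumor, which was the case for 45.8% of all tested genes. The median log2 fold change was -0.18 over the 8 receptors and -0.05 over all tested genes. With 8 genes chosen by hand, these shares describe the list and give no test of it.

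Total counts per library were between 22793087 and 32555494 in the vehicle group and between 13837932 and 21617368 in the RGS group, so each vehicle library was deeper than each RGS library, and depth and treatment cannot be told apart. A floor of 3 counts corresponded to 0.0856 to 0.226 CPM (counts scaled to a common library size with TMM factors). Such floors cover counting error only, because PCR copies of 1 molecule could not be recognised. Other shares of the libraries moved with treatment too. Ribosomal protein genes took 5.16% to 9.41% of the counts with vehicle and 2.85% to 3.35% with RGS, and mitochondrial genes 2.13% to 3.20% with vehicle and 5.60% to 8.22% with RGS. Their part in the changes below was not tested.

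The labels call the tissue a melanoma tumor, but most of its lineage markers had few or no counts. Of 10 melanocytic markers, *Tyr*, *Dct*, *Mlana*, *Gpr143* and *Slc45a2* had no count in any tumor, and the summed level of all 10 was between 7.48 and 9.93 CPM with vehicle and between 5.38 and 11.8 CPM with RGS. *Mitf*, the master regulator of melanocytes, was at 7.45, 4.27 and 4.64 CPM in the vehicle tumors and at 10.5, 7.30 and 4.53 CPM in the RGS tumors (log2 fold change 0.45, adjusted p = 0.440). None of the 3 melanocytic markers that were tested passed the threshold in edgeR, at an unadjusted p under 0.05 (0 genes) or in DESeq2 (0 genes). Markers of several host cells were at or near 0 as well: *Ptprc*, the pan-leukocyte gene, and *Adgre1*, the macrophage gene for F4/80, had no count in any tumor. Genes that most cells use could be at or near 0 too: *Hgs*, for endosomal sorting, had 1 count and *Pik3r2*, for a PI3K subunit, 4 counts in vehicle tumor 7 and none in the other tumors. A count of 0 in this table therefore does not by itself show that a gene was not expressed or that a cell type was missing. Since these are bulk samples, a lower level can come from fewer cells of a type or from less RNA per cell, and the counts cannot tell these apart.

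*Axl*, *Mertk* and *Tyro3* make up the TAM family, whose ligands GAS6 and PROS1 bridge the receptors to phosphatidylserine on dying cells. *Axl* (ENSMUSG00000002602.16, minus strand of GRCm38 chromosome 7, 25757273 to 25788705) was by far the most abundant of the 10 receptors. Its expression was 1632, 1261 and 1082 CPM in vehicle tumors 7, 8 and 9 and 906.5, 719 and 787 CPM in RGS tumors 10, 11 and 12. Every RGS tumor was thus below every vehicle tumor, with means of 1325 ± 281 CPM and 804 ± 94.9 CPM (SD, n = 3 each). This was a 1.65-fold decrease (log2 fold change -0.72, standard error 0.17, 95% confidence interval -1.07 to -0.37, adjusted p = 0.00287). Within each group the order of *Axl* levels was that of the library totals. These were 32555494, 26652104 and 22793087 counts in vehicle tumors 7, 8 and 9, and 21617368, 13837932 and 17768758 in RGS tumors 10, 11 and 12. Without vehicle tumor 7, the highest, the log2 fold change of *Axl* was -0.54 (adjusted p = 0.00114).

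The sequence before the *Axl* start site is shown because *Axl* supplied most of the receptor transcripts, and that of *Igf1r*, described below, because its fold increase was the greatest among the 8. Both are the 250 bases before the start site from RefSeq (GRCm38.p6), read 5′ to 3′ along the gene, *Axl* from chr7:25788734-25788983 on the minus strand and *Igf1r* from chr7:67952007-67952256 on the plus strand. Capitals mark the letters GGAATG (the core bound by TEAD factors) and GGGCGG (the GC box bound by SP factors), each searched on both strands, along with TGANTCA (the AP-1 site).
Axl: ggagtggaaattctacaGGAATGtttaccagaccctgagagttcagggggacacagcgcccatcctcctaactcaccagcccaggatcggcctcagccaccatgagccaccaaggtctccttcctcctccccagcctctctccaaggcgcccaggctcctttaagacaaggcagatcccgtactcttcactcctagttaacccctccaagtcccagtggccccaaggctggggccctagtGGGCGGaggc
Igf1r: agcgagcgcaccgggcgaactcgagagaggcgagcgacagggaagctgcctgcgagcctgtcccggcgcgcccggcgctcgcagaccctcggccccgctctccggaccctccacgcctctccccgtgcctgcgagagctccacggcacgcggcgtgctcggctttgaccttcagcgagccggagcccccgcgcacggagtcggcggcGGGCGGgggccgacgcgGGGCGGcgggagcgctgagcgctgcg

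In *Axl* the GGAATG letters began 233 bases before the start site and a GC box 10 bases before it, with a further GC box from 14 bases after it. In *Igf1r* GC boxes began 43 and 26 bases before the RefSeq start. The *Igf1r* gene as counted begins further downstream, at 67952827, so these positions do not refer to its annotated start. Over windows of 300 bases, which add 50 bases after the start, GGAATG was found in 14.7% of the 32851 RefSeq promoters and GGGCGG in 35.7%. TGANTCA was found in 7.81% of them and, among the 8 receptors with a promoter in the table, in *Met* only. CATGTG, the E-box form that MITF can bind, was in 14.2% of all promoters and in none of these 8. *Pdgfrb* and *Fgfr1* had no entry. A match of letters describes the window and says nothing about a factor's binding in these tumors.

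*Mertk* (ENSMUSG00000014361.5, chromosome 2, 128698956 to 128802894), which macrophages use to clear dying cells, was at 33.2, 36.6 and 31.2 CPM with vehicle and at 36.2, 42.5 and 49.1 CPM with RGS. RGS tumor 10 lay inside the vehicle range, so the groups overlapped. The log2 fold change was 0.34 (standard error 0.19) and its 95% confidence interval ran from -0.06 to 0.74 (adjusted p = 0.185), which leaves room for no change as well as for an increase of about the size seen in *Tyro3*. *Tyro3* (ENSMUSG00000027298.17, chromosome 2, 119797733 to 119818104) rose from 34.0, 28.96 and 31.5 CPM to 53.3, 44.5 and 51.6 CPM. No RGS tumor reached down to a vehicle tumor. The difference on the log2 scale was 0.66 (standard error 0.18, adjusted p = 0.00909). Without vehicle tumor 8 it was 0.63 with an adjusted p of 0.0579, so the call was lost. In that fit, 3493 genes passed the threshold over all genes, in place of 5036.

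Of the TAM ligands, *Pros1* (protein S) rose from 27.1, 22.4 and 20.03 CPM to 35.0, 38.6 and 41.8 CPM (log2 fold change 0.73, standard error 0.20, adjusted p = 0.00963), with no overlap. *Gas6*, the ligand with the highest affinity for AXL, was low in all tumors, at 1.59 to 3.81 CPM with vehicle and 0.0612 to 2.22 CPM with RGS (log2 fold change -1.06, adjusted p = 0.388). Macrophages are a usual site of *Mertk* and *Axl*, and most of their markers had few or no counts. Of 12 macrophage markers, *Adgre1*, *C1qc*, *Fcgr1* and *Aif1* had no count, *Csf1r* had at most 0.0753 CPM, and only *Cd68* and *Cd14* passed the filter on low counts. Their summed level was 65.1 to 71.0 CPM with vehicle and 83.0 to 106.3 CPM with RGS, most of it *Cd68*. *Cd14* rose (log2 fold change 1.66, adjusted p = 1.36e-04). *Cd68* had a log2 fold change of 0.24 (adjusted p = 0.293).

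**Figure D1:**
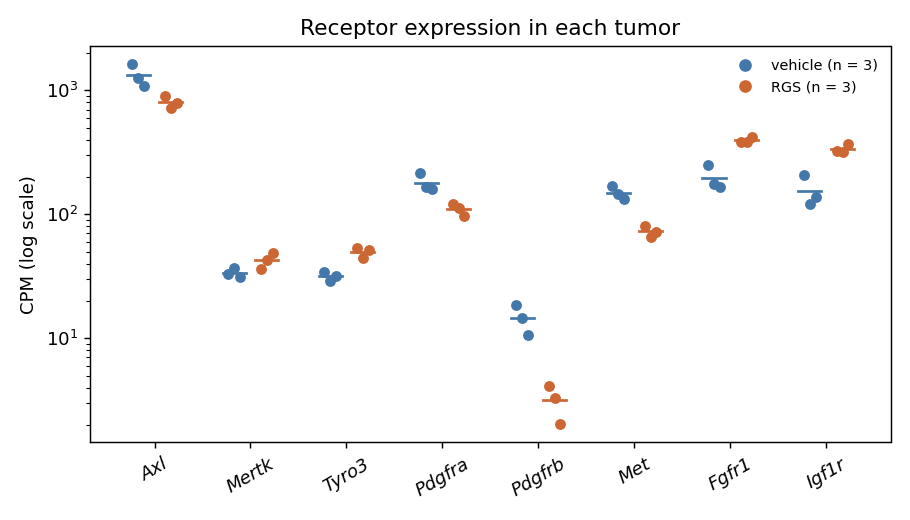
Expression of the 8 measured receptors (x axis) in CPM on a log scale (y axis), with 1 point for each tumor, vehicle in blue and RGS in orange, and a line at each group mean. Apart from *Mertk*, the groups do not overlap, and *Axl*, between 719 and 1632 CPM, lies above all others.

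*Pdgfra* and *Pdgfrb* encode the receptors for platelet-derived growth factors. *Pdgfra* (ENSMUSG00000029231.15, chromosome 5, 75152292 to 75198215) fell from 214, 165 and 159 CPM in the vehicle tumors to 122, 113 and 96.9 CPM in the RGS tumors. The highest RGS tumor was below the lowest vehicle tumor (log2 fold change -0.70, standard error 0.17, 95% confidence interval -1.05 to -0.35, adjusted p = 0.00312). *Pdgfrb* (ENSMUSG00000024620.11, chromosome 18, 61045150 to 61085061) was far less abundant and had the largest fold decrease of the 8 receptors, from 18.6, 14.5 and 10.6 CPM to 4.12, 3.31 and 2.02 CPM. In counts these were 650, 407 and 246 against 87, 44 and 33. Its log2 fold change was -2.20 (standard error 0.38, 95% confidence interval -2.99 to -1.41, adjusted p = 1.79e-04), a 4.60-fold decrease. In each vehicle tumor *Pdgfra* had 6.24 to 8.22 times the counts per length of *Pdgfrb*, and in each RGS tumor 16.2 to 26.2 times.

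All 4 ligand genes of this family passed the threshold, in opposite directions by type. *Pdgfa* and *Pdgfb*, the classical chains, rose. *Pdgfa* was at 79.2, 78.3 and 74.8 CPM with vehicle and at 103, 127 and 126 CPM with RGS (log2 fold change 0.61, adjusted p = 0.00585), and *Pdgfb* at 40.6, 37.4 and 31.4 CPM against 70.1, 65.7 and 56.3 CPM (0.81, adjusted p = 0.00198). *Pdgfc* and *Pdgfd*, whose proteins need cleavage before they can bind, fell. *Pdgfc* went from 39.8, 40.4 and 35.4 CPM to 23.1, 14.2 and 22.1 CPM (log2 fold change -0.96, adjusted p = 0.00258), and *Pdgfd* from 23.0, 29.9 and 27.8 CPM to 9.75, 9.26 and 7.52 CPM (-1.60, adjusted p = 6.67e-05). None of the 4 overlapped between the groups. Over all tested genes, 32.8% passed the threshold and 45.8% did not overlap between the groups. With 4 genes, these counts describe the family and give no test of it.

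Fibroblasts and mural cells (pericytes and smooth muscle) are the host cells that normally carry these receptors. Of 9 fibroblast markers, *Lum* had no count and *Postn* counts in 1 tumor only. Their summed level was 238 to 370 CPM with vehicle and 176 to 225 CPM with RGS, most of it *Col1a2*. *Col1a2* and *Col3a1* fell (log2 fold changes -0.73 and -0.90, adjusted p = 0.00503 and 0.00504), *Dcn* rose (3.24, adjusted p = 6.23e-05), and *Col1a1* stayed within its spread at 14.4 to 22.9 CPM over all tumors (adjusted p = 0.811). Of 8 mural markers, *Kcnj8* and *Abcc9*, which define pericytes, had no count. *Acta2*, *Notch3* and *Cspg4* fell (log2 fold changes -2.28, -1.27 and -0.87, adjusted p = 6.63e-08, 0.00519 and 0.00339). *Rgs5*, also a G-protein regulator gene, rose from 1.12 to 1.43 CPM to between 368 and 423 CPM (log2 fold change 8.25), and so carried the summed level of the list up from 178 to 253 CPM to 448 to 509 CPM. *Des* had no count with vehicle, and its mean with RGS was 4.70 times the largest vehicle floor of 3 counts per library. The call of *Des* as higher was lost whichever single tumor was left out. The part of such cells in the decreases of *Pdgfra* and *Pdgfrb* was not tested.

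*Kit*, the receptor of stem cell factor, lies next to *Pdgfra* on chromosome 5 (75574916 to 75656722). It had no count in any of the 6 libraries, which allows up to 0.129 CPM in the shallowest vehicle library and 0.226 CPM in the shallowest RGS library. *Kdr*, the VEGF receptor gene that follows in the same cluster, had 0 to 6 counts per tumor. *Pdgfra* was thus the only gene of the cluster of 3 receptors above the filter. The gene for the ligand of KIT, *Kitl*, was nonetheless among the most abundant ligand genes, and it fell from 167, 155 and 147 CPM to 86.5, 89.1 and 87.4 CPM (log2 fold change -0.84, standard error 0.15, adjusted p = 2.91e-04). The RGS tumors lay close together (SD 1.32 CPM) and below all vehicle tumors. Mast cells depend on KIT, and of 8 mast cell markers *Cpa3*, *Mcpt4*, *Tpsb2*, *Tpsab1* and *Ms4a2* had no count. The summed level, 22.3 to 32.3 CPM with vehicle and 44.2 to 48.1 CPM with RGS, came nearly all from *Gata2*, a gene of many lineages (log2 fold change 0.73, adjusted p = 0.00776).

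*Met* (ENSMUSG00000009376.15, chromosome 6, 17463800 to 17573980) encodes the receptor for hepatocyte growth factor. Its expression was 170.0, 146 and 133 CPM with vehicle and 81.1, 66.0 and 72.5 CPM with RGS. The groups were well apart, with means of 149.6 ± 18.9 and 73.2 ± 7.54 CPM (SD, n = 3 each). Like those of *Axl*, the *Met* levels had the order of the library totals within each group. *Met* fell by 1.03 on the log2 scale (standard error 0.16, 95% confidence interval of the change -1.37 to -0.69, adjusted p = 8.62e-05), which is the smallest adjusted p among the 8 receptors. It kept its call in all 13 other fits and when a fold limit of 1 on the log2 scale was added to the main fit. Its change was within that limit in some other fits, such as -0.93 without vehicle tumor 7. The single TGANTCA match in the promoter window of *Met* lies 54 bases before the RefSeq start site, at chr6:17463892-17463921 of GRCm38.p6 on the plus strand for the 30 bases shown, with the match in capitals. The *Met* gene as counted begins earlier, at 17463800, so these 30 bases lie inside its annotated span.
Met: tgttgcccggcTGAGTCAcgggccgggcag

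The only ligand of MET, *Hgf*, was close to the floor. Its counts were 19, 11 and 8 with vehicle and 1, 19 and 0 with RGS (0.344 to 0.542 CPM and at most 1.43 CPM, log2 fold change 0.17, adjusted p = 0.944), so no difference was detectable at this depth. Keratinocytes carry *Met* and *Fgfr2* in skin, and most of their markers had few or no counts. Of 7 keratinocyte markers *Krt1*, *Krt6a*, *Trp63* and *Dsg3* had no count, and the summed level was at most 1.72 CPM with vehicle and 2.56 CPM with RGS. Only *Krt10* was tested, and it did not pass (adjusted p = 0.634). At an unadjusted p under 0.05 and in DESeq2 the number was also 0.

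**Figure D2:**
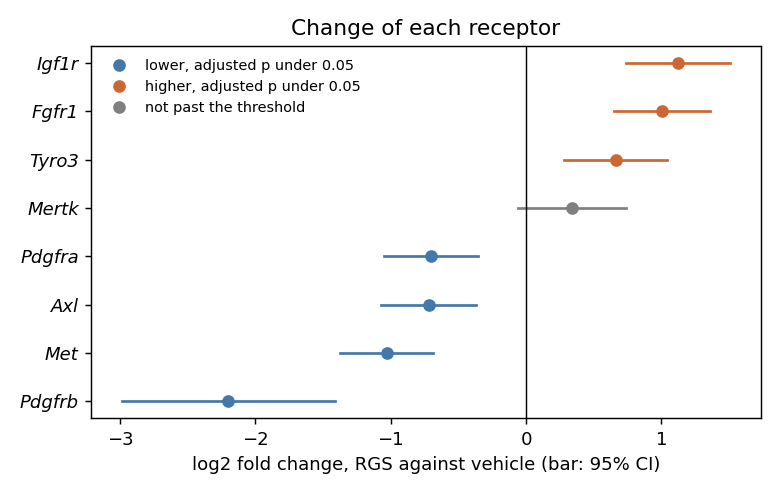
Log2 fold change of RGS against vehicle (x axis) for the 8 measured receptors (y axis), with bars for the 95% confidence interval from edgeR, blue for lower, orange for higher and grey for not past the threshold. The values run from -2.20 for *Pdgfrb* to 1.12 for *Igf1r*, and only the interval of *Mertk* crosses 0.

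*Fgfr1* and *Fgfr2* encode fibroblast growth factor receptors. *Fgfr1* (ENSMUSG00000031565.18, chromosome 8, 25513654 to 25575718) rose from 249.8, 177 and 166 CPM with vehicle to 382.5, 385 and 423 CPM with RGS. Its RGS tumors were the more uniform group, with a coefficient of variation of 5.78% against 23.1% in the vehicle tumors, and all 3 lay above all vehicle tumors. *Fgfr1* rose by 1.01 on the log2 scale (standard error 0.17, 95% confidence interval 0.65 to 1.36, adjusted p = 1.55e-04). *Fgfr2* (ENSMUSG00000030849.18, chromosome 7, 130162451 to 133123350) had 6 counts in vehicle tumor 7 (0.171 CPM) and none in the other 5 libraries, and it was not tested. *Fgfr3* reached at most 0.678 CPM in any tumor and *Fgfr4* had no count, so nearly all fibroblast growth factor receptor counts came from *Fgfr1*.

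Among the 18 fibroblast growth factor genes, *Fgf7* and *Fgf10* were the abundant ones, and both encode ligands that act mainly through a splice form of FGFR2. *Fgf7* was at 85.4, 76.0 and 77.7 CPM with vehicle and at 108, 107 and 106 CPM with RGS (log2 fold change 0.43, adjusted p = 0.0392). Its groups did not overlap, but the call was lost in 7 of 13 other fits, including the fits without vehicle tumor 8 or 9 and those that left out any single RGS tumor, where the adjusted p reached 0.189. *Fgf10* did not differ beyond its spread (37.8, 30.2 and 26.1 CPM against 39.0, 27.6 and 27.9 CPM, log2 fold change 0.01, adjusted p = 0.984). *Fgf2*, a ligand of FGFR1, was at 2.06 to 5.65 CPM with vehicle and 2.08 to 2.89 CPM with RGS (adjusted p = 0.424). *Fgf21*, an endocrine factor, had 53, 11 and 5 counts with vehicle (1.51, 0.392 and 0.215 CPM) and none with RGS. The vehicle mean was 3.13 times the largest RGS floor of 3 counts (0.226 CPM). That mean rests mostly on vehicle tumor 7, and vehicle tumor 9 was below this floor. The call of *Fgf21* was lost in 6 of 13 other fits, among them those without vehicle tumor 7 or 8 and those that left out any single RGS tumor (adjusted p up to 0.180). Of the others, *Fgf3*, *Fgf4*, *Fgf6*, *Fgf8*, *Fgf16*, *Fgf20* and *Fgf23* had no count.

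*Igf1r* (ENSMUSG00000005533.10, chromosome 7, 67952827 to 68233668), the receptor for insulin-like growth factors, had the largest increase of the 8 receptors. It was at 206, 121 and 139 CPM in the vehicle tumors and at 324, 317 and 372 CPM in the RGS tumors. Vehicle tumor 7, the highest of its group, was still below every RGS tumor. The log2 fold change was 1.12 (standard error 0.18, 95% confidence interval 0.74 to 1.51, adjusted p = 1.22e-04), a 2.18-fold increase. Its close relative *Insr*, the insulin receptor, rose as well, from 75.2, 54.0 and 53.7 CPM to 122, 142 and 97.7 CPM (log2 fold change 0.98, adjusted p = 4.77e-04).

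The ligand genes of IGF1R had few or no counts. *Igf2* had no count, and *Igf1* had 18, 0 and 0 counts with vehicle and 14, 36 and 50 with RGS (log2 fold change 3.54, adjusted p = 0.0591), while DESeq2 called it higher. Of the genes for proteins that bind these ligands, *Igfbp3*, *Igfbp4*, *Igfbp7* and *Igf2r* rose, while others had few counts or did not pass the threshold. The log2 fold changes of *Igfbp7* and *Igf2r* were 1.49 and 0.96 (adjusted p = 6e-05 and 1.94e-04). *Igfbp3* rose from 274, 252 and 203 CPM to 1335, 1320 and 1368 CPM (log2 fold change 2.46, standard error 0.16, adjusted p = 1.91e-09), and *Igfbp4*, named after its values were seen, from 405, 361 and 328 CPM to 1255, 1293 and 1355 CPM (1.83, adjusted p = 4.25e-08).

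Levels can be compared between receptors only per length, and TPM (counts per gene length, scaled to a common total per library, with the gene lengths of the table) was used for this. In vehicle tumors *Axl* led with 879.8 ± 282 TPM (SD, n = 3), and it was among the 211 highest genes of every vehicle tumor and the 311 highest of every RGS tumor. *Fgfr1*, *Met* and *Pdgfra* followed with 66.8 ± 22.8, 64.7 ± 15.3 and 59.6 ± 16.5 TPM. These means differ by less than the SD between tumors, but within each vehicle tumor *Pdgfra* was below both others (78.1, 53.9 and 46.6 TPM against 81.1, 62.2 and 50.8 TPM for *Met* and 92.6, 58.5 and 49.4 TPM for *Fgfr1*), whereas *Met* and *Fgfr1* changed order between tumors. *Igf1r* (30.9 ± 12.1 TPM) and *Mertk* (25.6 ± 3.82 TPM) also changed order between tumors, and *Tyro3* (16.8 ± 2.88 TPM) and *Pdgfrb* (8.91 ± 3.37 TPM) came last. With RGS the order changed. *Axl* stayed first at 463 ± 83.6 TPM, *Fgfr1* came next at 115.8 ± 4.04 TPM and *Igf1r* moved up to 57.9 ± 2.86 TPM (SD, n = 3 each). *Pdgfra*, *Mertk*, *Met* and *Tyro3* lay together between 23.2 and 32.0 TPM, each within the larger SD of its neighbour in the order, and *Pdgfrb* was at 1.69 ± 0.679 TPM.

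**Figure D3:**
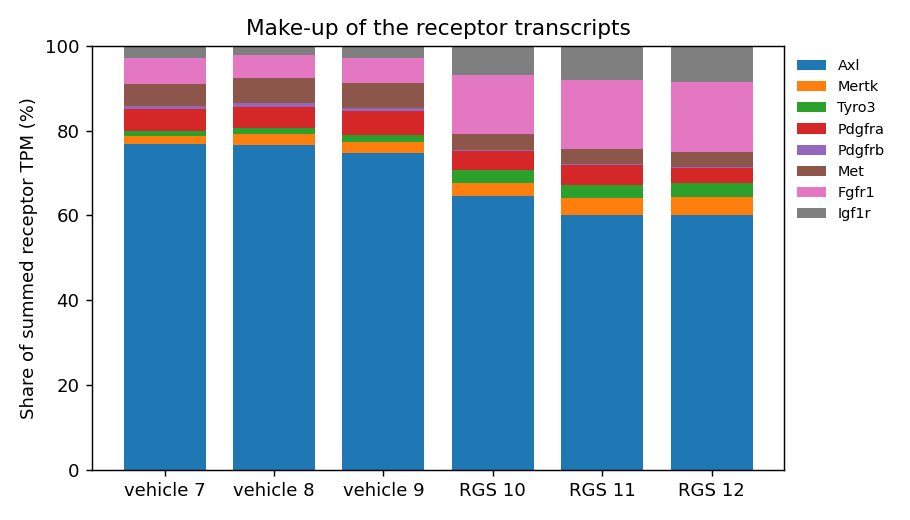
Share of each measured receptor in the summed TPM of the receptors (y axis, in percent, stacked from 0 to 100) for each tumor (x axis). *Axl* takes 74.8% to 76.9% of the bar in the vehicle tumors and 60.0% to 64.7% in the RGS tumors, and the part of *Fgfr1* and *Igf1r* is larger in the RGS tumors.

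The make-up of the receptor transcripts differed between the groups. *Axl* held 76.1 ± 1.13% of the summed receptor TPM with vehicle and 61.6 ± 2.68% with RGS (SD, n = 3 each). *Fgfr1* went from 5.77 ± 0.270% to 15.6 ± 1.44% and *Igf1r* from 2.66 ± 0.394% to 7.79 ± 0.801%, with no overlap between the groups for either. *Met* went the other way, from 5.69 ± 0.398% to 3.67 ± 0.0997%. Shares of a whole are tied to each other, so they are given as a description.

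Ratios between receptors within a library do not depend on how the libraries are scaled to each other. The pairs were chosen after the values had been seen, and the ratios are given with no test. *Axl* had 12.8, 14.0 and 12.8 times the counts per length of *Fgfr1* in the vehicle tumors and 4.65, 3.67 and 3.65 times in the RGS tumors. The ratio of *Met* to *Igf1r* was 1.81, 2.64 and 2.09 with vehicle and 0.547, 0.455 and 0.426 with RGS, so *Met* was above *Igf1r* in every vehicle tumor and below it in every RGS tumor. Within the TAM family, the ratio of *Axl* to *Tyro3* was 42.3 to 59.1 with vehicle and 18.8 to 20.9 with RGS, and that of *Axl* to *Mertk* 29.7 to 42.4 and 13.8 to 21.6.

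**Figure D4:**
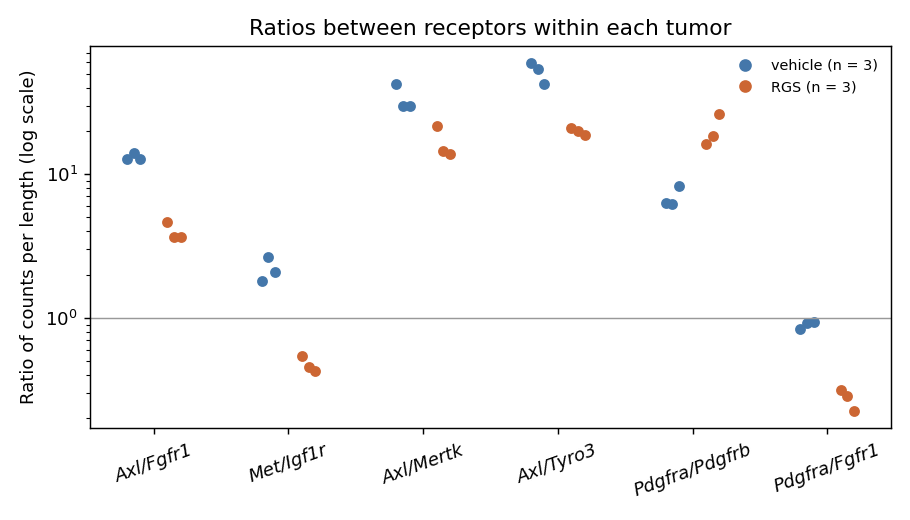
Ratios of counts per gene length between pairs of receptors (x axis) on a log scale (y axis), with 1 point per tumor, vehicle in blue and RGS in orange, and a grey line at 1. The ratio of *Met* to *Igf1r* lies above 1 in the vehicle tumors (1.81 to 2.64) and below 1 in the RGS tumors (0.426 to 0.547).

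Over the 28 ligand genes of these receptors, 16 passed the filter on low counts and 8 had no count in any tumor. Of the 16, 4 rose (*Pdgfa*, *Pdgfb*, *Pros1* and *Fgf7*) and 4 fell (*Pdgfc*, *Pdgfd*, *Kitl* and *Fgf21*), so 8 of 16 passed, beside the 32.8% of all tested genes. The median log2 fold change was 0.12.

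**Figure D5:**
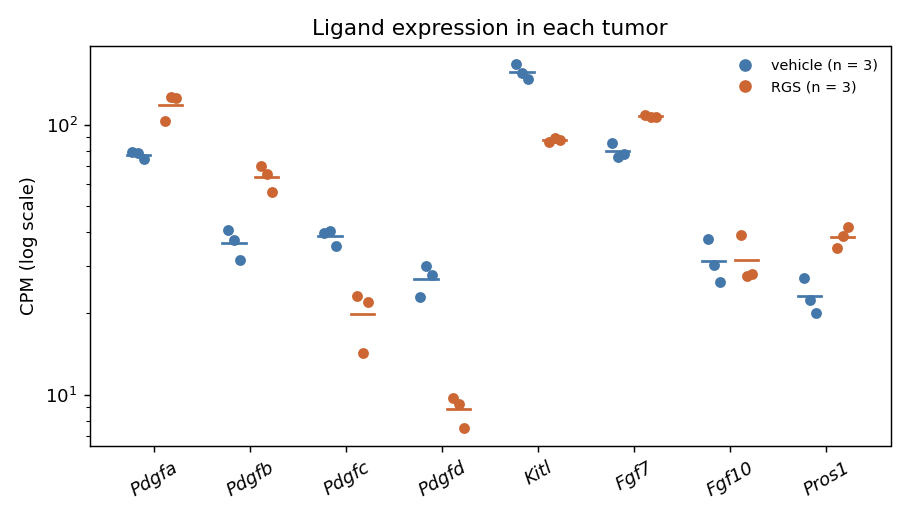
Expression of 8 ligand genes (x axis) in CPM on a log scale (y axis), with 1 point per tumor and a line at each group mean, vehicle in blue and RGS in orange. *Pdgfa*, *Pdgfb*, *Fgf7* and *Pros1* lie higher and *Pdgfc*, *Pdgfd* and *Kitl* lower in the RGS tumors, while *Fgf10* overlaps.

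Of 27 genes for binding proteins, proteases and co-receptors that control access to the ligands, 19 were tested, 10 rose, 1 fell and 8 did not pass (57.9% called beside 32.8% of all tested genes, median log2 fold change 0.77). Next to *Igfbp3*, the smallest adjusted p-values belonged to *Plau* and *Plat*, plasminogen activators that can also cleave latent ligands such as PDGF-D and PDGF-C (log2 fold changes 2.46 and 2.09). The one that fell was *Sdc4*, a heparan sulfate proteoglycan that assists fibroblast growth factors, from 215, 253 and 243 CPM to 137, 150.5 and 139 CPM (log2 fold change -0.74, adjusted p = 8.67e-04).

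Among 30 genes that relay receptor signals, 27 were tested, 8 rose, 3 fell and 16 did not pass (40.7% called, near the 32.8% of all tested genes, median log2 fold change 0.07). *Grb2*, the adaptor that brings SOS to active receptors, rose from 99.3, 92.0 and 99.0 CPM to 168, 168 and 201 CPM (log2 fold change 0.89, adjusted p = 2.09e-04). The adaptor gene *Shc2* and the kinase gene *Src* rose too (1.31 and 1.01, adjusted p = 2.78e-05 and 2.20e-04). *Yes1*, a kinase of the SRC family, fell (-1.15, adjusted p = 4.08e-04), and so did *Irs2*, a docking protein of the insulin and IGF receptors (-0.80, adjusted p = 0.00472), and the adaptor gene *Crk* (-0.52, adjusted p = 0.0124). The call of *Crk* was lost without vehicle tumor 8 or RGS tumor 11 (adjusted p up to 0.0782), and without vehicle tumor 8 the list had 6 calls in place of 11.

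Of 29 genes of receptor turnover (ubiquitination, dephosphorylation, inhibition or shedding), 27 were tested, 7 rose, 4 fell and 16 did not pass. The share called was 40.7%, also near the 32.8% of all tested genes, with a median log2 fold change of -0.10. The list also holds genes that act against such steps, such as *Timp3*, so its split gives no direction for turnover. *Cblb*, a ubiquitin ligase for active receptors, rose from 16.4, 12.2 and 11.2 CPM to 47.5, 40.2 and 42.5 CPM (log2 fold change 1.71, adjusted p = 8.63e-06). The phosphatase genes *Ptprk* and *Ptpn1* rose (1.61 and 1.21, adjusted p = 2.43e-06 and 1.62e-05). *Errfi1*, an inhibitor of the EGF receptor family, fell from 402, 356 and 328 CPM to 229, 176 and 171 CPM (-0.91, adjusted p = 2.47e-04). *Timp3*, which inhibits the sheddases of AXL and MET, fell from 87.6, 67.8 and 40.3 CPM to 37.7, 27.1 and 21.2 CPM (adjusted p = 0.00150), and *Socs3* fell by 0.60 on the log2 scale (adjusted p = 0.0117), a call that was lost without RGS tumor 12 (adjusted p = 0.0653).

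The other 48 receptor tyrosine kinase genes give the family background. Of these, 25 were tested, 6 rose and 2 fell (32.0%, median log2 fold change 0.26), next to 87.5% of the 8 measured receptors and 32.8% of all tested genes. *Ddr2*, a collagen receptor, fell from 422, 346 and 325 CPM to 190.4, 176 and 156 CPM (log2 fold change -1.07, adjusted p = 4.39e-05). *Lmtk3* and *Flt3* rose, *Flt3* from at most 0.599 CPM with vehicle to 6.39, 6.55 and 10.8 CPM (log2 fold changes 1.99 and 4.99, adjusted p = 5.68e-05 and 1.50e-04). *Egfr* rose from 14.0, 8.09 and 7.01 CPM to 25.1, 19.4 and 18.5 CPM (1.11, adjusted p = 0.00671). *Epha4*, at most 2.77 CPM, fell, but without vehicle tumor 7 or 8 or RGS tumor 10 or 12 its call was lost (adjusted p up to 0.132).

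*Axl* is commonly set beside other genes of the MITF-low state, and 9 such genes were examined. Of these, 6 rose, none fell and 3 did not pass, beside 16.3% of all tested genes higher and 16.5% lower, and their summed level was 839 to 1197 CPM with vehicle and 1656 to 1867 CPM with RGS. *Nt5e* and *Sox9* rose (log2 fold changes 1.70 and 1.47, adjusted p = 1.36e-06 and 1.53e-06), *Tnc* rose from 540.0, 351 and 332 CPM to 941, 861 and 961 CPM (adjusted p = 5.75e-05), and *Ngfr*, a neural crest receptor, rose by 1.53 (adjusted p = 4.79e-04). In contrast, *Axl* was lower, and *Zeb1* was at 93.8, 71.7 and 66.2 CPM against 62.2, 49.8 and 58.3 CPM (log2 fold change -0.44, adjusted p = 0.0661). Also not past the threshold were *Wnt5a* (log2 fold change -0.82, adjusted p = 0.117) and *Fosl1* (0.28, adjusted p = 0.184). DESeq2 also called 6 genes of this list, and at an unadjusted p under 0.05 there were 7, with *Zeb1*.

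Some other host cell markers also moved with treatment. Of 9 leukocyte markers *Ptprc*, *Cd3e* and *Cd8a* had no count, while *Laptm5* and *Cd53* rose (log2 fold changes 2.35 and 1.41, adjusted p = 9.00e-09 and 5.43e-06) and brought the sum from 187 to 248 CPM to 919 to 1028 CPM. Of 9 endothelial markers *Emcn* had no count, *Pecam1* was at most 1.04 CPM, and *Cdh5*, *Egfl7* and *Eng* rose (3.47, 1.10 and 0.63), *Eng* not without vehicle tumor 8 (adjusted p = 0.0519), for a sum of 52.7 to 58.9 CPM with vehicle and 90.7 to 102 CPM with RGS. Of 5 muscle markers *Ckm* and *Myh4* had no count, and the sum was 3.14 to 4.77 CPM with vehicle and 1.58 to 3.12 CPM with RGS. Of 4 adipocyte markers *Plin1* had no count, and the sum was 6.85 to 11.9 CPM with vehicle and 6.72 to 14.8 CPM with RGS. None of the 2 muscle genes and 1 adipocyte gene tested passed in edgeR, in DESeq2 or at an unadjusted p under 0.05 (0 genes each). Their part in the changes of the receptors was not tested.

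For each measured receptor, the 2 genes with the most similar pattern were taken by Pearson's r of log2 CPM over the 6 tumors, among the 158 other tested genes of the lists above. The 6 tumors form the 2 treatment groups, so a high r mostly reflects a shared difference between the groups and is a description only. For *Axl* these were *Zeb1* (r = 0.976) and *Fgf21* (0.970). *Fgf21* had no count in any RGS tumor, so its r rests partly on values at the floor. *Ddr2* was among the closest for *Pdgfrb* (0.992), *Met* (0.986) and *Pdgfra* (0.983), joined by *Errfi1* for *Pdgfrb* and *Met* (0.984 and 0.986) and by *Pdgfrb* for *Pdgfra* (0.980). Among the receptors that rose, *Fgfr1* was closest to *Sh3kbp1* (0.999) and *Tnc* (0.997), *Igf1r* to *Flt3* and *Ptprj* (0.998 each) and *Tyro3* to *Ptprk* and *Ptpn1* (0.993 and 0.990). *Mertk* had the weakest neighbours, *Fgf5* (0.939), which had at most 27 counts in any tumor, and *Cd68* (0.933).

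Reads of overlapping genes can enter a count where strand is not used, and the strand setting is not given in the sources used here. In GENCODE M21, no other gene overlapped *Axl*, *Met*, *Igf1r*, *Tyro3*, *Kit* or *Pdgfrb*. The genes that overlapped *Pdgfra*, *Fgfr1* or *Mertk* and are in the table had at most 14 counts in any tumor. The annotated span of *Fgfr2* covers many other genes, among them *Htra1* with 4537 to 22567 counts per tumor, and how reads shared by overlapping genes were assigned is not given in the sources used here, which limits what the near-zero count of *Fgfr2* shows.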

How the data were processed

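Bulk RNA-Seq of 6 tumors, 3 vehicle and 3 RGS, was analysed from the raw counts per gene that the authors deposited. Per the labels, reads were processed with cutadapt 1.18, FastQC 0.11.7, STAR 2.7.1a and featureCounts 1.6.4 on mm10. The strand setting and the handling of reads with several hits are not given in the sources used here. The table also lists each gene's length and position, and of its genes 38971 are in GENCODE M21, all with the same start and end. Columns were matched to samples by title.

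A gene was kept where the median of its counts reached 5 in the vehicle or the RGS group, after the study's own filter, which left 15355. TMM factors, dispersions and the quasi-likelihood test came from edgeR 4.0.16 in R 4.3.3, with Benjamini-Hochberg adjustment over all kept genes and a threshold of 0.05. Standard errors are the log2 fold change over the square root of F. The procedure was also run on counts simulated from its own fitted levels and dispersions. Such counts follow the model by design, so the run does not show how well the model fits these tumors. No pair of libraries of a group looked like 1 library deposited again (smallest chi-square per degree of freedom 19.6). Alternatives were DESeq2 1.42.0 (the study's tool), limma 3.58.1 voom with quality weights, RLE factors, library size only, 2 other filters, each tumor left out, a fold limit, and thinned counts.

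The receptors and all gene lists, written by hand, were chosen with earlier results of these data known. The text names all receptors, every ligand past the threshold and the most abundant one per receptor group, up to 3 genes per direction of each other list by adjusted p, and the most similar genes. *Kdr*, *Egfr*, *Ngfr*, *Zeb1*, *Igfbp4*, *Csf1r*, *Fgfr3*, *Fgfr4*, *Fgf2*, *Fgf10*, *Gas6*, *Hgs*, *Pik3r2*, *Htra1*, ligands at 0 and the markers that did not pass were named beyond that rule, after their values were seen. So were *Igfbp7* and *Igf2r*.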

Additional observations from a re-analysis of the deposited data

How the results depend on the processing

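In 13 other fits (without the fold limit), *Axl*, *Met*, *Pdgfra*, *Pdgfrb*, *Fgfr1* and *Igf1r* kept their direction and stayed past the threshold, *Mertk* stayed outside it (adjusted p from 0.12 to 0.509), and *Tyro3* missed it once, without vehicle tumor 8 (log2 fold change 0.63, adjusted p = 0.0579). No receptor changed direction. With 1 tumor left out in turn, the log2 fold changes ranged from 0.61 to 0.73 for *Tyro3*, and the number of genes past the threshold from 6 to 7 for the receptors, 6 to 8 for the ligands, 6 to 10 for the other receptor tyrosine kinases, 6 to 14 for the relay genes, 9 to 12 for the turnover genes and 3493 to 5249 for all genes. A further limit of 1 on the size of the log2 fold change left 2618 of 5036 genes, 4 of 7 receptors (without *Axl* at -0.72, *Pdgfra* at -0.70 and *Tyro3* at 0.66), 2 of 8 ligands, 5 of 8 other receptor tyrosine kinases, 5 of 11 relay genes and 6 of 11 turnover genes. These losses come from the limit itself, which was applied to the main fit only. *Met* (-1.03), *Fgfr1* (1.01) and *Igf1r* (1.12) passed it there, but were as small as -0.93, 0.86 and 0.97 in other fits. With limma voom the other receptor tyrosine kinases had 14 calls in place of 8, and the cause was not tested. Scaling by library size only moved the median log2 fold change of all genes from -0.05 to -0.19 and the split of calls from 2503 higher and 2533 lower to 1870 higher and 3152 lower, while the 7 receptors kept their calls. Each group has only 3 tumors and RGS libraries are shallower, which limits genes near the floor such as *Hgf*, *Igf1*, *Fgf21* and *Fgfr2*. No paired analysis was possible because the labels number the tumors from 7 to 12 and the groups share no number.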
